A study of Mus musculus with 16 samples.

Results

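The Rab family was the set of 58 genes whose symbols are Rab followed by a number and an optional letter and digit, and whose values summed to more than 16 over 16 mice, among 55404 genes measured in whole brain. Effectors, regulators and pseudogenes were left out of the family, and Rab17 fell below the limit with a sum of 5. The samples were brains of untreated mice of 5 months, 8 homozygous for the Tecpr2 L1152Yfs frameshift (Tecpr2 ki/ki) and 8 wild type (wt/wt). The frameshift was made by CRISPR/Cas9 editing of C57BL/6 J zygotes and is carried in the germ line, so that it is present in every cell of the brain. Total RNA was depleted of ribosomal RNA and sequenced, and each mouse was 1 sample. The members lie on 18 chromosomes, and 55 of them passed the filter for testing, which asks for a value over 5 in at least 4 mice of a genotype. Rab20, Rab25 and Rab44 did not pass it.

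Rab proteins are small GTPases that mark the membranes of a cell. Bound to GTP and anchored by lipid groups on cysteines at the end of the chain, each recruits effectors such as motors, tethers and coat adaptors. Guanine nucleotide exchange factors (GEFs) load GTP, GTPase activating proteins (GAPs) end the active state, and GDP dissociation inhibitors (GDIs) return the inactive protein to the cytosol. In neurons, Rab3 and Rab27 act in vesicle release, Rab5 and Rab7 in the endosomal route to the lysosome, Rab11 in recycling, and Rab1, Rab2 and Rab6 between the endoplasmic reticulum (ER) and the Golgi. TECPR2 has been studied in ER export, autophagy and tethering to lysosomes, steps in which Rab proteins take part.

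Tecpr2 itself separated the genotypes. Its deposited value, a normalized read value rounded to a whole number, ran from 274 to 320 (median 298.5) in ki/ki and from 928 to 1002 (median 968.5) in wt/wt brains. It fell by 1.68 on the log2 scale, with a standard error of 0.0363 (adjusted p = 2.16e-47, limma with the Benjamini-Hochberg adjustment). The values summed to between 11964284 and 12252324 per mouse. Among cell type markers, 7 of 15 microglial genes and 3 of 11 astrocytic genes rose at an adjusted p under 0.1 in limma. Over all tested genes 0.133% passed this threshold. None of 10 neuronal, 10 oligodendrocytic, 8 endothelial and 6 choroid plexus genes passed it. At an unadjusted p under 0.05 in limma these lists had 2, 0, 0 and 2 genes, against 6.08% of all tested genes. The summed microglial value was 3529 to 3844 in ki/ki and 3018 to 3363 in wt/wt mice, without overlap. The summed neuronal value was 62892 to 65403 in ki/ki and 63013 to 67311 in wt/wt mice, with overlap. All 10 neuronal genes were measured and passed the filter. In RNA of whole brain, fewer cells of a type and less RNA per cell cannot be told apart.

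The cysteine codons that end the coding sequence are shown for the members on which the results turn, since they carry the membrane anchor common to the family. Each line holds the last 8 codons of the GENCODE M21 transcript, 5′ to 3′ and with the stop codon, and capitals mark cysteine codons.
Rab6b: agcgagggcggcTGCtccTGTtaa
Rab6a: aatgaaggcggcTGTtccTGCtaa
Rab3a: cctcatcaggatTGTgccTGCtga
Rab3c: ccacagcccaacTGTggcTGCtaa
Rab7: tccgcagaaagcTGCagtTGTtga
Rab7b: cagccaaagagcagaTGCTGCtga
Rab1a: cagtcaggtggaggcTGCTGCtaa
Rab10: ggctggaagagcaagTGCTGCtga
Rab5a: agaagccagTGTTGTagtaactga
Rab5b: aagagccagTGTTGTagcaactga
Rab5c: cggagccagTGCTGCagcaactga
Rab11a: gtgcagTGCTGTcagaacatctaa
Rab11b: ctgcagTGCTGCcagagcctgtga
Rab8a: ttcttccggTGCagtctcctgtga
Rab38: TGCtctggcTGTgccaaatcctag
All 58 members had a cysteine codon among the last 5 codons before the stop. In 20 members the chain ended in cysteine, any residue, cysteine, as in Rab3a, Rab6a, Rab6b and Rab7. In 15 it ended in a pair of cysteines, as in Rab1a, Rab7b and Rab10. In 14 the pair was followed by 1 to 3 further residues, as in Rab5a, Rab5b, Rab5c, Rab11a and Rab11b. The remaining 9, Rab8a and Rab38 among them, had a lone cysteine codon among these last 5. The encoded proteins were 194 to 725 residues long (median 215), and the longest was that of Rab44.

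Levels differed widely between members. To compare genes, values were divided by the length of all annotated exons of a gene, which can exceed that of the transcripts present. The order of genes depends on this length, and the ranges over mice do not include its error. By the undivided value Rab3c stood above Rab3a, with means of 5916.5 and 3469. Per kb of exon, the highest was Rab6b, the Rab6 form enriched in neurons, with a mean deposited value of 1610 per kb (range over the 16 mice 1505 to 1711). Rab3a, the main Rab of synaptic vesicles, followed at 1558 (1493 to 1661), and the ranges of the pair overlapped. Rab6a, of the Golgi, stood at 1142 (1092 to 1237), below every value of Rab6b and Rab3a. Rab2a, which acts between Golgi and ER, at 824 (786 to 886) and Rab7, of late endosomes, at 797 (751 to 859) overlapped each other and lay below Rab6a in every mouse. Rab3c, another synaptic vesicle Rab, came next at 491 (470 to 523). Together these 6 genes made up 50.6% of the summed per-kb level of the family. The median was 90.5 per kb over the 58 members and 95.02 over the 55 tested, against 33.9 over 22878 tested genes with a length. At the low end, Rab20, described in phagosomes, had a mean of 2.47 per kb, Rab25, of epithelial recycling endosomes, 0.785, and Rab44, a large Rab of immune cells, 0.346. Their deposited values were 1 to 8, 0 to 3 and 0 to 5 over the mice, too low for a comparison.

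**Figure D1:**
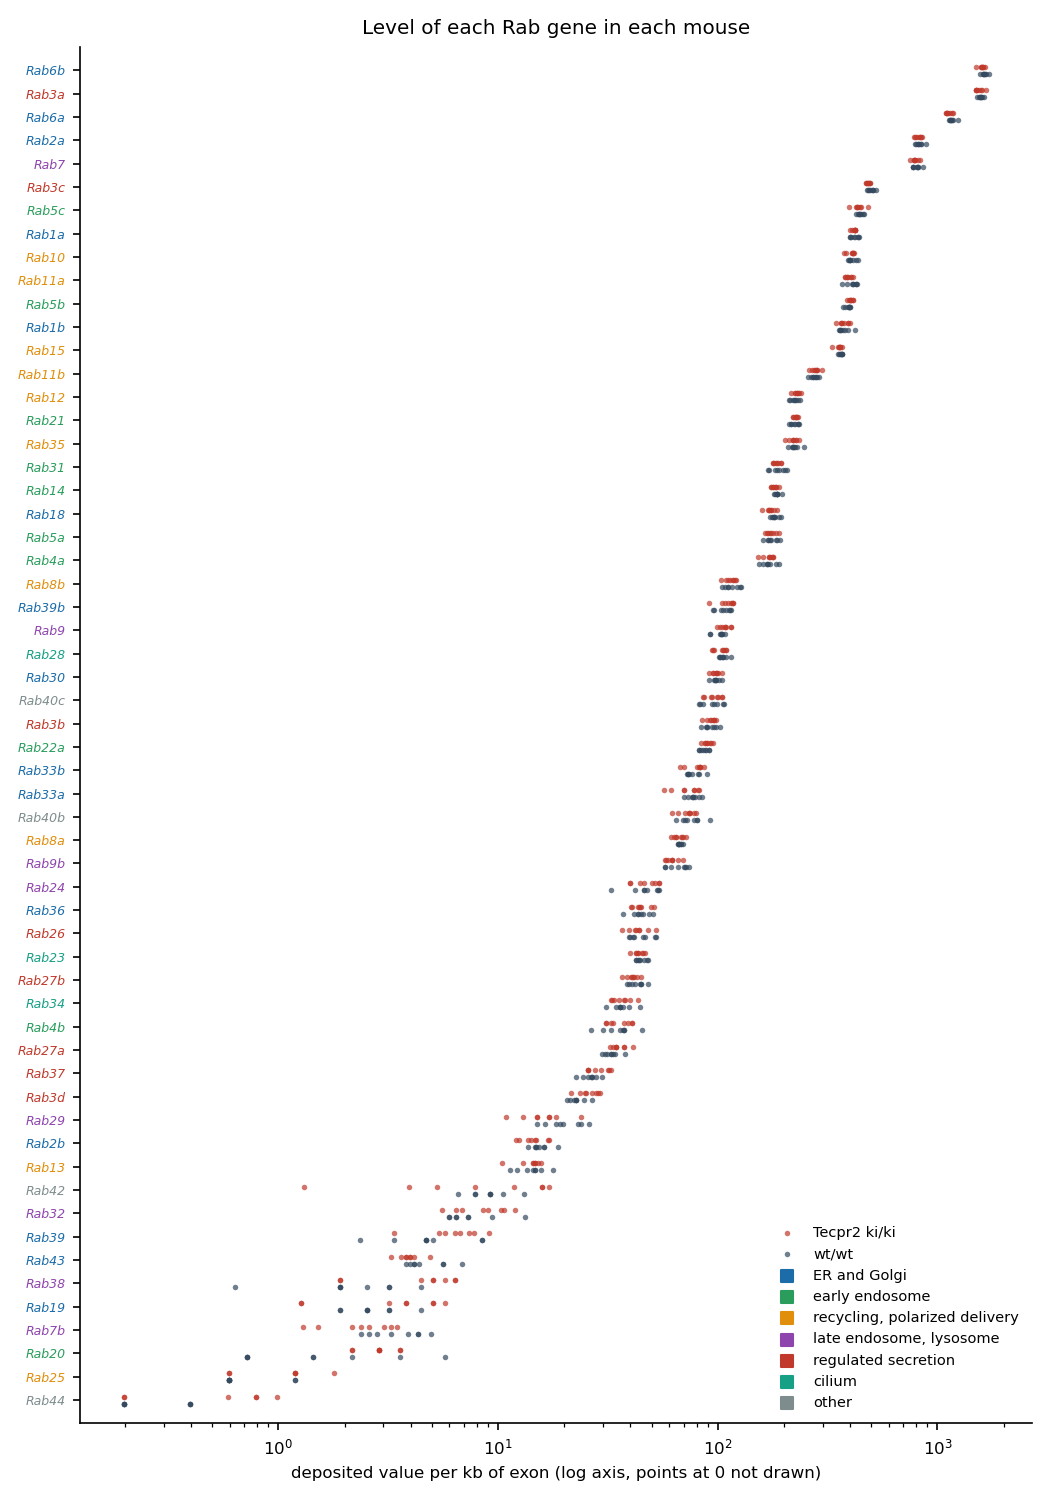
Deposited value per kb of exon (log axis) of the 58 Rab genes in each of 8 Tecpr2 ki/ki (red points) and 8 wt/wt mice (dark points), ordered by mean level, with gene names coloured by role and values of 0 not drawn. Rab6b and Rab3a lie highest at 1610 and 1558 per kb, and the points of the genotypes overlap for every gene.

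Grouped by role, 15 members of the ER and Golgi route held the largest share of the family's per-kb level, 39.1% ± 0.401 in ki/ki against 39.4% ± 0.232 in wt/wt mice (SD, n = 8 each). The 8 members of regulated secretion held 18.2% in each genotype (SD 0.351 in ki/ki and 0.174 in wt/wt mice). Recycling and polarized delivery, with 10 members, held 16.4% in each (SD 0.181 and 0.169). The 10 members of the early endosome held 15.1% ± 0.146 in ki/ki against 14.9% ± 0.232 in wt/wt mice (SD, n = 8 each). The 8 members of late endosomes and lysosomes held 8.25% and 8.22%. The ranges of the genotypes overlapped for each of the 7 role groups, cilium and other members included. Summed over the family, the deposited values were 0.419% to 0.430% (median 0.423%) of a brain's total in ki/ki and 0.424% to 0.436% (median 0.429%) in wt/wt mice, again with overlap.

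The comparison of the genotypes asked whether loss of TECPR2 was accompanied by a change in any Rab transcript. No Rab gene was called. At a Benjamini-Hochberg adjusted p under 0.1, limma called 0 of 55 tested members, against 0.133% of all 23244 tested genes. At an unadjusted p under 0.01 it also called 0, against 1.56% of all genes. The smallest unadjusted limma p values, 0.0105 for Rab3c and 0.0116 for Rab6b, lay close to this threshold. In 13 of 24 alternative settings at least 1 member passed it. At an unadjusted p under 0.05 there were 8 members (14.5%), against 6.08% of all genes, of which 6 were lower in ki/ki mice (background 3.01%) and 2 higher (background 3.07%). The smallest adjusted p over the family was 0.641. For all 55 members the values of the genotypes overlapped, while 0.086% of all tested genes had no overlap. By the log2 fold change 34 members were lower in ki/ki mice and 21 higher, a share of 61.8% lower against 50.5% over all tested genes. The median log2 fold change was -0.015 over the members and -0.00098 over all tested genes.

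The width of the intervals shows which differences in whole-brain RNA these samples could have resolved. The paper places a loss of neuronal cell bodies in a small area of the medulla, the dorsal column nuclei. It also reports fewer projecting neurons in the cortex, and states that changes extend to regions connected with the medulla. Whole-brain values average over regions, so a change confined to a small area could be missed and was not tested. For 21 members the whole 95% interval of the log2 fold change lay within ±0.1, that is between a fall of 6.70% and a rise of 7.18%. For 37 it lay within ±0.2, and for 47 within ±0.5. The 24 members with a mean deposited value of 500 or more had standard errors from 0.0158 to 0.0403 (median 0.0271) on the log2 scale, and none of their intervals reached beyond -0.124 or 0.127. The 17 members between 100 and 500 had standard errors from 0.0402 to 0.0796. Below 100, the 14 tested members had standard errors from 0.0855 to 0.319, with intervals reaching from -0.941 to 1.398, and smaller changes in these genes were not detectable with 8 mice a genotype. Within a genotype the coefficient of variation had a median of 3.66% over the 24 abundant members, against 3.92% over 4892 tested genes of the same range.

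**Figure D2:**
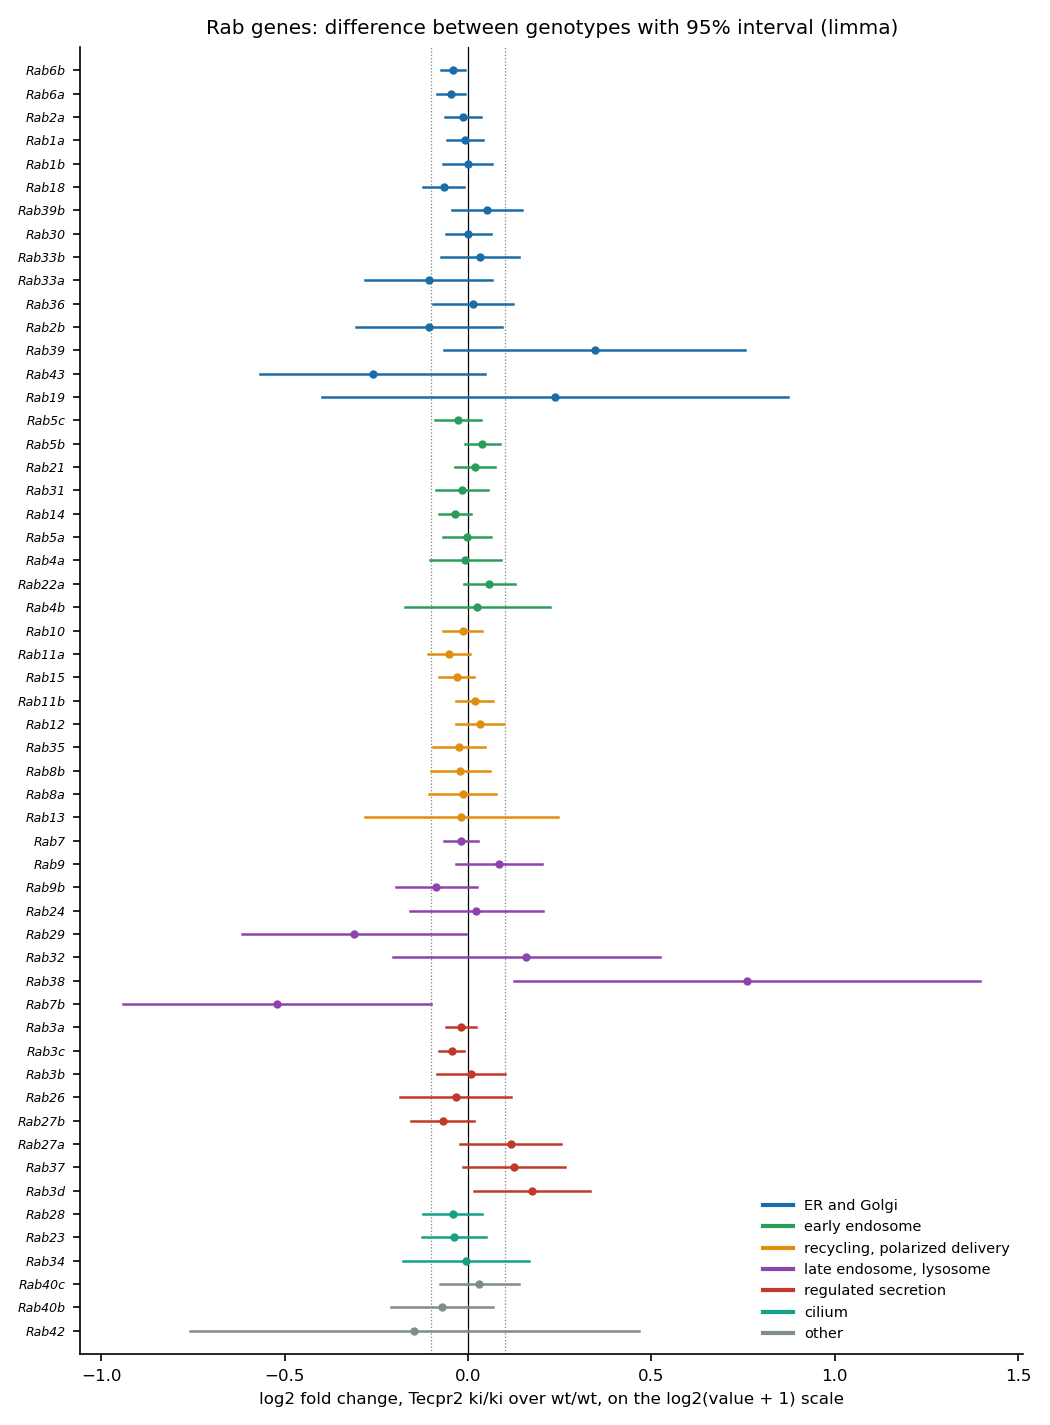
Log2 fold change of each of the 55 tested Rab genes (points) with its 95% interval from limma (lines), Tecpr2 ki/ki over wt/wt, coloured by role and ordered by level per kb within a role, dotted lines at -0.1 and 0.1. Intervals are narrow around 0 for abundant genes and wide for low ones such as Rab38 and Rab7b.

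Among members of the ER and Golgi route, the most abundant Rab genes of the brain stood slightly lower in ki/ki mice without passing the adjusted threshold. Rab6b (ENSMUSG00000032549, chromosome 9 from 103111787 to 103185276, plus strand, GRCm38) ran from 7570 to 8252 (median 8012) in ki/ki and from 7856 to 8610 (median 8191) in wt/wt mice. The difference was -0.041 on the log2 scale (95% interval -0.073 to -0.0095), or -2.80%, with a limma adjusted p of 0.645 and an exact two-sided permutation p of 0.0367. The genotypes overlapped, with 1 ki/ki mouse below every wt/wt mouse. Rab6a (ENSMUSG00000030704), which directs retrograde transport through the Golgi, ran from 4072 to 4371 (median 4144.5) in ki/ki and from 4212 to 4610 (median 4294.5) in wt/wt mice. Here the log2 fold change was -0.046 (95% interval -0.084 to -0.0088, limma adjusted p = 0.699, exact permutation p = 0.0317), and 5 of 8 ki/ki mice were below every wt/wt mouse. Of its annotated exon bases 19.0% overlap Mrpl48 on the opposite strand.

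Rab18 (ENSMUSG00000073639), which acts at the ER and on lipid droplets, ran from 1090 to 1276 (median 1186.5) in ki/ki and from 1178 to 1327 (median 1238) in wt/wt mice. On the log2 scale it differed by -0.067 (95% interval -0.124 to -0.0097, limma adjusted p = 0.757, exact permutation p = 0.0476), and 4 ki/ki mice were below every wt/wt mouse. Rab1a, Rab1b and Rab2a, which act between ER and Golgi, were closer to 0. Rab1a ran from 1520 to 1608 (median 1596.5) in ki/ki and from 1512 to 1669 (median 1591) in wt/wt mice, with an interval of -0.06 to 0.04. For Rab1b the medians were 845 and 836.5 and the interval was -0.07 to 0.07. Rab2a had a median of 1753.5 in each genotype and an interval of -0.06 to 0.03. The rarer Rab2b, at 50 to 71 in ki/ki and 57 to 78 in wt/wt mice, had a log2 fold change of -0.11 (95% interval -0.30 to 0.09). In the 15 members of this route, 9 were lower and 6 higher in ki/ki mice, with log2 fold changes from -0.26 for Rab43 to 0.35 for Rab39, which had mean values of 24.2 and 17.4 over all mice. Of the exon bases of Rab43, 75.35% overlap Gm45140 on the same strand, and of those of Rab2b 63.99% lie inside other genes.

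At the early endosome, Rab5a, Rab5b and Rab5c each drive fusion of incoming vesicles. Rab5a (ENSMUSG00000017831) ran from 864 to 1004 (median 917) in ki/ki and from 843 to 1012 (median 916.5) in wt/wt mice. The difference of -0.0038 on the log2 scale had an interval of -0.070 to 0.062, or -4.72% to 4.40%. The genotypes covered nearly the same range. Rab5b ran from 1621 to 1735 (median 1689) in ki/ki and from 1554 to 1688 (median 1660) in wt/wt mice, and 4 ki/ki mice exceeded every wt/wt mouse. Its log2 fold change of 0.039 (95% interval -0.0090 to 0.086, limma adjusted p = 0.884, exact permutation p = 0.0536) did not pass the threshold. Rab5c had medians of 949 and 972.5 and an interval of -0.09 to 0.03. No member of the trio therefore showed a difference beyond the spread between mice.

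Rab14, which links the Golgi with endosomes, ran from 2361 to 2594 (median 2452.5) in ki/ki and from 2448 to 2673 (median 2518) in wt/wt mice, with an interval of -0.08 to 0.01. Rab22a, of early endosomal sorting, ran from 607 to 686 (median 642) in ki/ki and from 590 to 659 (median 621.5) in wt/wt mice, with an interval of -0.01 to 0.13. Rab21, tied to integrin uptake, had medians of 1142 and 1126.5 (interval -0.04 to 0.07). For Rab4a, of fast recycling, they were 302 and 296 (interval -0.11 to 0.09). In this group 4 of 9 tested members were higher and 5 lower, and none reached an unadjusted p under 0.05 in limma.

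No member of recycling and polarized delivery passed a threshold. Rab11a, the main Rab of recycling endosomes, ran from 1137 to 1237 (median 1168.5) in ki/ki and from 1099 to 1283 (median 1230) in wt/wt mice, so that the ki/ki values lay inside the wt/wt range. Its interval was -0.11 to 0.01 (limma adjusted p = 0.875, exact permutation p = 0.109). Rab11b, its paralog, had medians of 1698.5 and 1676.5 and an interval of -0.03 to 0.07. Rab10 and Rab8a, which serve delivery to the plasma membrane and are substrates of the kinase LRRK2, had intervals of -0.07 to 0.04 and -0.11 to 0.08. Rab35, of endocytic recycling, had an interval of -0.09 to 0.05. Of 9 tested members 7 were lower and 2 higher, with log2 fold changes from -0.05 to 0.03. Over all tested genes 50.5% were lower.

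Among members of late endosomes and lysosomes, only Rab7 had a mean value of 500 or more. Rab7 (ENSMUSG00000079477, chromosome 6 from 87999106 to 88045270, minus strand, GRCm38), which directs late endosomes to lysosomes, ran from 1960 to 2183 (median 2053) in ki/ki and from 2015 to 2242 (median 2098.5) in wt/wt mice. For it, the log2 fold change was -0.020 with an interval of -0.067 to 0.027, or -4.53% to 1.92%. Rab9, of return from late endosomes to the Golgi, ran from 173 to 200 (median 188.5) in ki/ki and from 161 to 189 (median 180.5) in wt/wt mice. Its interval was -0.03 to 0.20 (exact permutation p = 0.0513), and 3 ki/ki mice exceeded every wt/wt mouse. Its paralog Rab9b ran from 230 to 275 (median 245) in ki/ki and from 228 to 293 (median 270) in wt/wt mice, with an interval of -0.20 to 0.02.

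The next 4 members were rare. Of 15 microglial marker genes 7 rose in the same brains at an adjusted p under 0.1 in limma, against 0.133% of all tested genes. Their summed values did not overlap between the genotypes, and their part in the values of these Rab genes was not tested. Rab7b (ENSMUSG00000052688), described in transport from late endosomes to the Golgi, had values of 6, 10, 15, 7, 12, 14, 11 and 16 in ki/ki and of 20, 13, 11, 23, 15, 12, 20 and 18 in wt/wt mice. It was lower in ki/ki mice by the mean, at a log2 fold change of -0.52 (95% interval -0.94 to -0.10, limma adjusted p = 0.699, exact permutation p = 0.0284). Rab38 (ENSMUSG00000030559), of melanosome biogenesis, had values of 8, 7, 10, 3, 8, 3, 9 and 10 in ki/ki and of 4, 5, 3, 5, 3, 3, 7 and 1 in wt/wt mice. It was higher by the mean, with 5 ki/ki mice over every wt/wt mouse and a log2 fold change of 0.76 (95% interval 0.125 to 1.398, limma adjusted p = 0.735, exact permutation p = 0.0208). Rab29, which recruits LRRK2, ran from 16 to 35 (median 23.5) in ki/ki and from 22 to 38 (median 28.5) in wt/wt mice, with an interval of -0.62 to -0.0047. Rab32, the relative of Rab38, ran from 13 to 28 (median 20.5) and from 14 to 31 (median 16), with an interval of -0.21 to 0.52.

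Regulated secretion held the member with the smallest limma p of the family, while the exact permutation p was smallest for Rab38 among the members so tested. Rab3c (ENSMUSG00000021700, chromosome 13 from 110054187 to 110280996, minus strand, GRCm38) ran from 5668 to 5966 (median 5827) in ki/ki and from 5775 to 6307 (median 6002) in wt/wt mice. The genotypes overlapped, and 3 ki/ki mice were below every wt/wt mouse. By limma it differed by -0.044 on the log2 scale (95% interval -0.078 to -0.011), or -3.03%, with a limma adjusted p of 0.641 and an exact permutation p of 0.0258. Rab3a, the most abundant synaptic vesicle Rab per kb, ran from 3324 to 3698 (median 3402.5) in ki/ki and from 3377 to 3633 (median 3486) in wt/wt mice, with an interval of -0.06 to 0.02. Rab3b had medians of 331.5 and 323 and an interval of -0.08 to 0.10. Rab3d, known from secretory granules of gland cells, ran from 90 to 122 (median 108.5) in ki/ki and from 86 to 112 (median 95) in wt/wt mice. This made a log2 fold change of 0.17 (95% interval 0.02 to 0.33, limma adjusted p = 0.795, exact permutation p = 0.0253).

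The Rab27 pair, of granule and exosome release, stood in opposite order. Rab27a ran from 125 to 159 (median 133.5) in ki/ki and from 115 to 147 (median 126.5) in wt/wt mice, with an interval of -0.02 to 0.25 and an exact permutation p of 0.0594. Rab27b ran from 391 to 477 (median 436.5) in ki/ki and from 412 to 512 (median 459.5) in wt/wt mice, with an interval of -0.16 to 0.02 and an exact permutation p of 0.174. Neither passed a threshold. Beside the small differences of Rab3c, Rab6b and Rab6a, 9 of 10 neuronal marker genes had a lower mean in ki/ki mice, with a median log2 fold change of -0.035 and none at an adjusted p under 0.1 in limma, and their part in these Rab values was not tested.

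**Figure D3:**
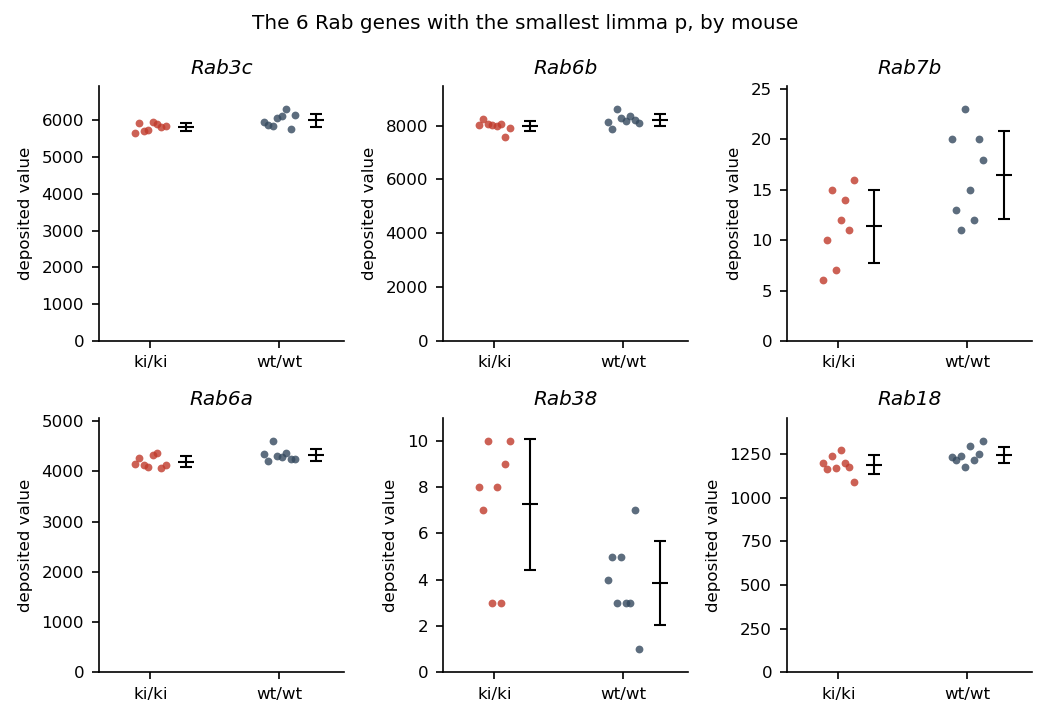
Deposited values of the 6 Rab genes with the smallest limma p in each of 8 Tecpr2 ki/ki (red) and 8 wt/wt mice (dark), with the mean and SD beside the points and axes from 0. The genotypes overlap in each panel: Rab3c, Rab6b, Rab6a and Rab18 differ by a few percent, and Rab7b and Rab38 have values of at most 23 and 10.

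The members of the cilium, Rab23, Rab28 and Rab34, had log2 fold changes from -0.042 to -0.0054. Among members with a mean of at least 50, the spread between mice of a genotype was widest for Rab4b, Rab24 and Rab26. Their coefficients of variation were 14.1%, 13.9% and 11.3%, at low mean values of 69.9, 95.1 and 126. These genes also overlap others in the annotation, and the part of level or overlap in this spread was not tested. Of the exon bases of Rab24, linked to autophagy, 62.4% overlap Prelid1 on the opposite strand, and of those of Rab4b 65.0% lie in the readthrough gene Gm21983, which was listed at 0 in every mouse. Rab26, of synaptic vesicles, shares 9.36% with Traf7. Their intervals were -0.17 to 0.22 for Rab4b, -0.16 to 0.20 for Rab24 and -0.19 to 0.12 for Rab26. In all, 9 members had more than 10% of their exon bases inside another gene.

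Shared sequence limits some members in another way. Of 58 members 39 had no stretch of 31 coding bases in common with the transcript of any other gene, and 11 had more than 10% of their coding sequence in such stretches, mostly with processed pseudogenes. For Rab11b the share was 94.6% with Rab11b-ps2, a pseudogene whose own value was 171 ± 12.1 in ki/ki against 170 ± 16.3 in wt/wt mice (SD, n = 8 each), 10.1% of the mean of Rab11b. For Rab7 it was 63.8% with Rab7-ps1, at 157 ± 17.6 in ki/ki against 160 ± 10.7 in wt/wt mice (SD, n = 8 each), 7.63% of the mean of Rab7. For Rab5b it was 79.9% with Gm13991, at 59.1 ± 10.5 in ki/ki against 60.8 ± 5.75 in wt/wt mice (SD, n = 8 each), or 3.60% of Rab5b. Reads could be split within these pairs or left uncounted, so the levels of Rab11b, Rab7 and Rab5b are uncertain by an amount not measured here. Between Rab paralogs at most 1.389% of a coding sequence was shared, that of Rab1b with Rab1a.

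The balance of paralogs overlapped between the genotypes. Within the Rab5 trio, Rab5c held 43.1% ± 1.56 of the summed per-kb level in ki/ki against 44.0% ± 0.649 in wt/wt mice (SD, n = 8 each). Rab5b held 39.6% and 38.7%, and Rab5a 17.3% and 17.4%. Within Rab3, Rab3a held 72.0% in ki/ki and 71.9% in wt/wt mice and Rab3c 22.5% and 22.8%. Rab6b held 58.5% of the Rab6 pair in each genotype. Rab7 held 99.7% and 99.6% of its pair with Rab7b. The largest differences in a mean share were those of Rab27, in which Rab27b held 53.4% ± 2.01 in ki/ki against 56.6% ± 2.15 in wt/wt mice (SD, n = 8 each), and of Rab9, which held 63.4% ± 1.59 and 60.6% ± 3.50 (SD, n = 8 each) beside Rab9b. The ranges of the genotypes overlapped for each paralog of these families.

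**Figure D4:**
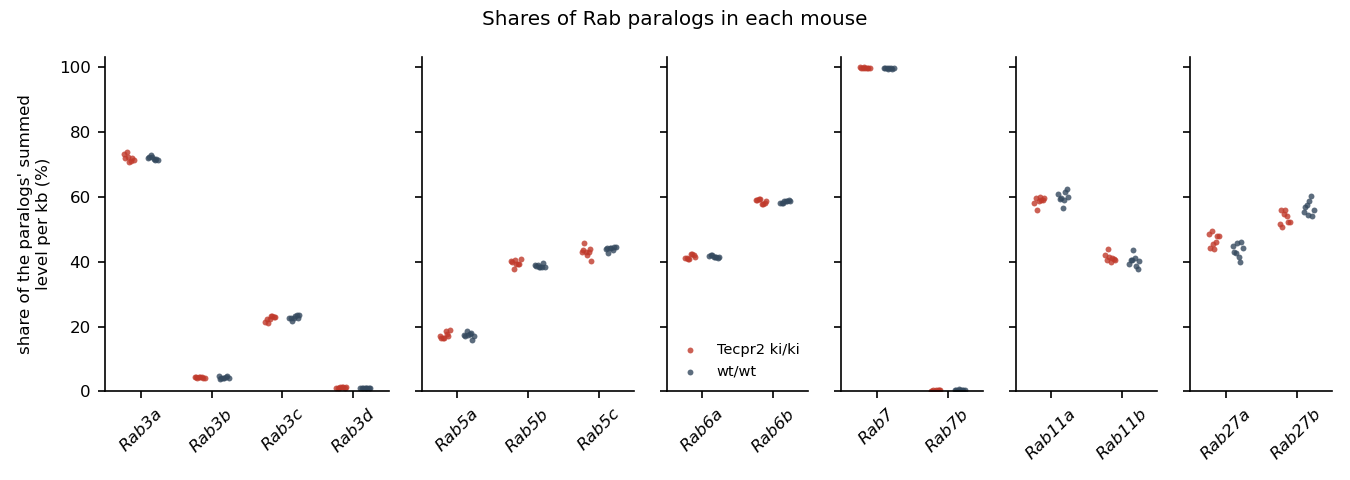
Share of each paralog in the summed level per kb of its family (%), in each of 8 Tecpr2 ki/ki (red points) and 8 wt/wt mice (dark points), for Rab3, Rab5, Rab6, Rab7, Rab11 and Rab27. The genotypes overlap for every paralog, and Rab7b makes up under 1% of its pair in every mouse.

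Promoter windows were read for the 47 members found in the RefSeq table of GRCm38.p6, which gave 59 windows of 250 bases before to 50 after a transcription start. The palindrome TCACGTGA, the core of the element bound by the lysosomal regulator TFEB, was searched on both strands because several members act in lysosomal traffic. It was found in 3 windows (5.085%), those of Rab5a, Rab21 and Rab24, against 0.974% of 32851 windows of all genes. The 3 windows are shown on the strand of the gene, with this motif in capitals.
Rab5a promoter, chr17:53478984-53479283, plus strand: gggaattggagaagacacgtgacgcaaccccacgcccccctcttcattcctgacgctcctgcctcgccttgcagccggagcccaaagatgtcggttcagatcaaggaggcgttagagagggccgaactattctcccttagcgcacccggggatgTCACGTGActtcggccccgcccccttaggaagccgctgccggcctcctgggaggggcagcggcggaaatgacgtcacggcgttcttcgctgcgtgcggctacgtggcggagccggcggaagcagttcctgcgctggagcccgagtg
Rab21 promoter, chr10:115315542-115315841, minus strand: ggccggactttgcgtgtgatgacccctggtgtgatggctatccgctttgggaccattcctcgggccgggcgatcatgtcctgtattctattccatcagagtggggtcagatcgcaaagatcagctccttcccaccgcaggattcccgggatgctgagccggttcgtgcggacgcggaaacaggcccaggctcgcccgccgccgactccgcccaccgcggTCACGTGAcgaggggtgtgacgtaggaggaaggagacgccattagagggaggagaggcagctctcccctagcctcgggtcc
Rab24 promoter, chr13:55321931-55322230, minus strand: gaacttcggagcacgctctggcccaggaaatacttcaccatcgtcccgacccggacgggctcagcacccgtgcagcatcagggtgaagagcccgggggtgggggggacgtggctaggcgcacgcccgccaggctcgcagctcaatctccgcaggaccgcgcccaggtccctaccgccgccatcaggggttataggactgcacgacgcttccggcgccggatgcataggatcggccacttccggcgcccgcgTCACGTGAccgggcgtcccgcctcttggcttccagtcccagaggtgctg
The window of Rab5a also holds TGACGTCA, the palindrome of the cAMP response element, as does that of Rab25, against 1.79% of all windows. The transcripts of the 3 genes had log2 fold changes of -0.0038, 0.018 and 0.023, with adjusted p of 0.994, 0.964 and 0.986 in limma. The shorter CACGTG, which lies within TCACGTGA, was found in 6 Rab windows (10.17%), against 7.15% of all windows. The windows of Rab genes had a median of 61.3% G and C and 20 CpG pairs, against 52.7% and 7 over all windows. The part of this base content in the shares of motif windows was not tested. These matches describe the sequence and are no measure of binding.

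Across mice the members moved together only weakly. After the mean of each genotype was removed, the median Pearson correlation over 595 pairs of the 35 members with a mean of at least 200 was 0.06. The highest values were 0.73 for Rab10 with Rab11b and 0.70 for Rab6b with Rab6a, and the lowest was -0.59 for Rab3c with Rab4a. Each rests on the 16 mice, whose libraries all genes share, and is given as a description.

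Genes that run the Rab cycle were compared in the same fit. The list of prenylation enzymes, escort proteins and GDIs had 9 tested genes. Of these 8 were lower in ki/ki mice, against 50.5% of all genes. None was called at an adjusted p under 0.1 in limma (smallest 0.765). At an unadjusted p under 0.01 there were 0 and under 0.05 there was 1, against 1.56% and 6.08% of all genes. The gene concerned was Gdi2, a GDP dissociation inhibitor, at 1993 to 2166 (median 2093.5) in ki/ki and 2030 to 2223 (median 2181) in wt/wt mice and a log2 fold change of -0.05. Of 38 GEF genes none passed an adjusted p under 0.1 in limma (smallest 0.586). At an unadjusted p under 0.01 there was 1, Als2cl, higher in ki/ki mice with medians of 139.5 and 125, and at an unadjusted p under 0.05 there were 2, both higher, against 1.56% and 6.08% of all genes. Of 8 kinase and phosphatase genes that act on Rab proteins none passed an adjusted p under 0.1 or reached an unadjusted p under 0.05 in limma, Lrrk2 included, with an interval of -0.11 to 0.01.

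Of 40 GAP genes 1 was called at an adjusted p under 0.1 in limma, against 0.133% of all genes. At an unadjusted p under 0.01 there were 3, all lower in ki/ki mice (Tbc1d9b, Rab3gap1 and Sgsm2), and at an unadjusted p under 0.05 there were 5, of which 2 were higher, against 1.56% and 6.08% of all genes. Tbc1d9b, which encodes a TBC-domain GAP described as acting on Rab11a, ran from 1502 to 1598 (median 1565) in ki/ki and from 1807 to 1923 (median 1864.5) in wt/wt mice, without overlap. It fell by 0.26 on the log2 scale (95% interval -0.31 to -0.22, limma adjusted p = 2.98e-13), beside the values of Rab11a given above. Rab3gap1, a subunit of the enzyme that acts on Rab3 and, as an exchange factor, on Rab18, ran from 1011 to 1126 (median 1095.5) in ki/ki and from 1106 to 1203 (median 1139) in wt/wt mice, with a log2 fold change of -0.08 (limma adjusted p = 0.513). Sgsm2, another TBC-domain GAP, had medians of 854 and 913 (limma adjusted p = 0.532). Of 55 effector genes none passed an adjusted p under 0.1 in limma. At an unadjusted p under 0.01 there was 1 (adjusted p = 0.220), Plekhm2, which links lysosomes to kinesin, with medians of 1133 in ki/ki and 1055.5 in wt/wt mice and a log2 fold change of 0.11. Of the effectors 3 had an unadjusted p under 0.05, a share near the 6.08% of all genes. The median log2 fold change was -0.022 for prenylation and GDI genes, 0.0087 for GEFs, -0.0088 for GAPs, -0.0065 for effectors and -0.012 for kinases and phosphatases, beside -0.015 for the Rab genes.

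**Figure D5:**
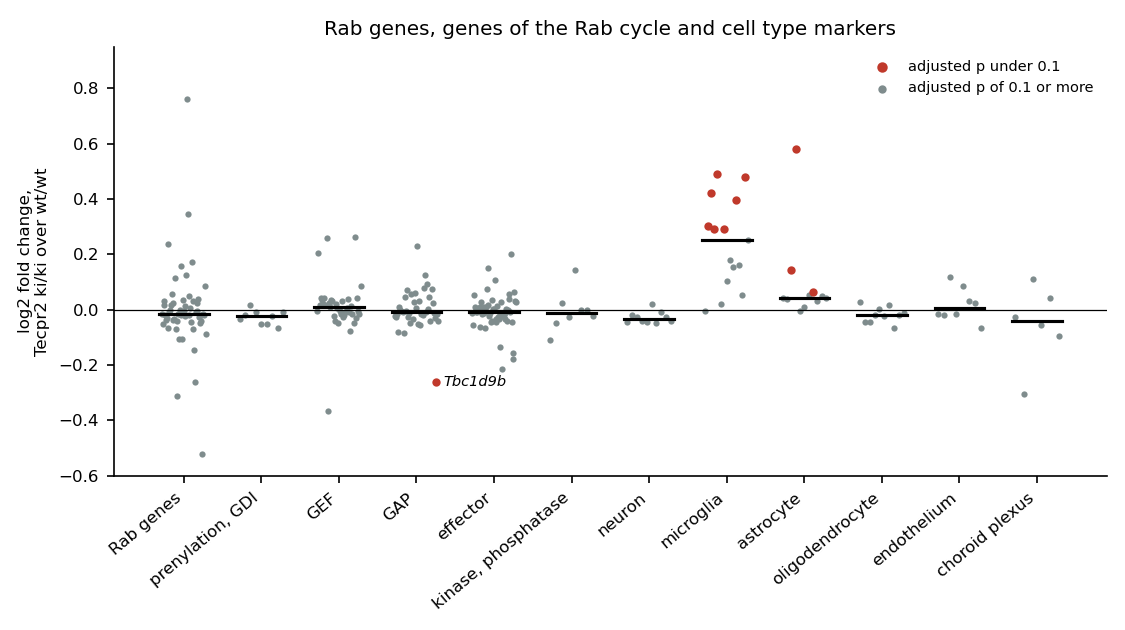
Log2 fold change (Tecpr2 ki/ki over wt/wt) of the tested Rab genes, genes of the Rab cycle and markers of 6 cell types, 1 point a gene, with a bar at each median and red points for an adjusted p under 0.1. No Rab gene is red, Tbc1d9b is the only red point of the Rab cycle at -0.26, and 7 microglial and 3 astrocytic markers are red and above 0.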

How the data were processed

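RNA of 16 whole brains was sequenced in pairs with a stranded total RNA kit after removal of ribosomal RNA. Per the study's methods, the authors trimmed reads (Trim Galore 0.6.10, cutadapt 3.4), aligned them with STAR 2.7.10b to GRCm39, and made gene counts with summarizeOverlaps (IntersectionNotEmpty mode), in which reads that cannot be assigned to 1 gene are not counted. Whether counting used the strand is not given in the sources used here. The deposited values are a score: the authors' linear normalized values, rounded to whole numbers, with a normalization that the files do not name. They are no counts, so the depth of a mouse is unknown and no counting error is given. The 16 single-mouse files equal the columns of the series table. The authors ran DESeq2 1.40.2, whose results are not used here.

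Groups came from the genotype labels. Nothing says that mice with the same number are paired. Symbols, exon lengths, coordinates and coding sequences came from GENCODE M21 (GRCm38), another build than the authors', and promoters from RefSeq (GRCm38.p6). Of the 55404 IDs 52017 had a symbol. Genes summing to more than 16 with a value over 5 in at least 4 mice of a genotype were tested with limma 3.58.1 in R 4.3.3 (trend and robust variance) on log2(value + 1), with Benjamini-Hochberg adjustment over 23244 genes and thresholds of 0.1 adjusted and 0.01 unadjusted. A fold change on this scale understates that of low genes. The fit was tested on simulated data. Single values were compared by the exact two-sided permutation test over all 12870 splits, whose smallest possible p is 0.000155. These p-values were not adjusted, and 37 Rab and Tecpr2 values were tested.

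The members and lists were chosen with earlier results of these data known. The genes named were Tecpr2, the 6 with the smallest p, a set given by role, the 3 highest and 3 lowest per kb, the 3 with the largest variation, and in the Rab cycle lists those called, to which genes of known role or small p were added after their values were seen. Alternatives were other pseudocounts, filters, scalings and variance settings, the replicate number as a block, and each mouse left out.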

Additional observations from a re-analysis of the deposited data

Results flagged for a closer look

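In each genotype, the highest and the lowest value of each of the 55 tested Rab genes were set against the other 7 mice by Dixon's test. The gap to the nearest mouse passed Dixon's 95% limit for 8 values in 4 of 110 groups. Chance alone gives about 1 in 20.

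For Rab6a, wt/wt mouse 3 had a value of 4610, above the 4212 to 4371 of the other wt/wt mice. For Rab14, wt/wt mouse 6 had 2673, above 2448 to 2540. For Rab32, wt/wt mouse 8 had 31, above 14 to 22. For Rab15, which acts in endocytic recycling, ki/ki mouse 1 had 1528, below 1623 to 1691. These were 4 different mice. Without wt/wt mouse 3 the log2 fold change of Rab6a was -0.03, and without wt/wt mouse 8 that of Rab32 was 0.27.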

How the results depend on the processing

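Of 24 alternative settings, none brought a Rab gene to an adjusted p under 0.1 in limma (smallest 0.398, for Rab6b without wt/wt mouse 2). At an unadjusted p under 0.01, where 0 Rab genes were called, there were 2 without a filter on low values (Rab3c and Rab6b, of 58 genes tested) and 2 under quantile normalization (Rab3c and Rab7b). Leaving out each mouse in turn gave 0 to 3 such genes, with 3 without ki/ki mouse 5, ki/ki mouse 6 or wt/wt mouse 2, each time among Rab3c, Rab6a, Rab6b, Rab18 and Rab38. The other settings (pseudocounts of 0.1 and 10, a mean of at least 50, median-of-ratios scaling and variance without robust fitting) gave 0. The median log2 fold change over the Rab genes stayed below 0, from -0.0219 to -0.00682 with mice left out.

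Same-numbered mice had correlations of -0.0393 to 0.149 in their deviations, and 3 of 8 ki/ki mice were closest to the wt/wt mouse of their number. These values cannot show whether same-numbered mice shared a litter, cage or day, so pairing stays unknown. With the number as a replicate block, 2 Rab genes (Rab3c and Rab6b) had an unadjusted p under 0.01 and 0 an adjusted p under 0.1. Over all 23244 tested genes, limma with the block called 46 at an adjusted p under 0.1, against 31 without it. At an unadjusted p under 0.01 these numbers were 419 and 362.

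Of 33 named Rab genes, 9 changed sign in 36 of 788 alternative values. Under quantile normalization Rab1b stood at 0.00436 and Rab5a at 0.00526. With mice left out, the log2 fold changes ran from -0.0183 to 0.00201 for Rab1a, -0.0143 to 0.0233 for Rab1b, -0.0127 to 0.0286 for Rab3b, -0.0278 to 0.0146 for Rab4a, -0.0309 to 0.0782 for Rab4b, -0.0230 to 0.0146 for Rab5a, -0.0300 to 0.00261 for Rab8a, -0.0479 to 0.0578 for Rab24 and -0.0728 to 9.71e-05 for Rab26. The cause of these shifts was not tested. The depth of the mice is unknown, and members with a mean under 100 were measured too coarsely for changes below about their intervals.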
